A study of Mus musculus with 2 samples.

Results

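The genes described are 10 predicted models of the mouse genome, Gm10801, Gm10800, Gm21738, Gm10722, Gm10721, Gm10720, Gm10719, Gm10718, Gm10717 and Gm10715, whose annotated transcripts are made of the same short repeated sequence. They were found by symbol through the GENCODE M21 annotation of GRCm38, and all 10 matched a row among the 46983 genes of the count table. The set was chosen by name and on the read counts of these same 2 libraries, so its values are a description and carry no test.

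Total RNA was sequenced from 46C cells, mouse embryonic stem cells with a fluorescent reporter inserted at Sox1, grown on feeder cells in serum medium with LIF. One library was from cells carrying a hairpin to linc1557, a long noncoding RNA, in the pLKO.1-TRC vector, and the second from cells given a control hairpin. According to the labels, stably infected clones were picked after puromycin treatment, so each library may stand for few founder cells. There was 1 library per group, hence no replicate error and no p-value. The series title places linc1557 in LIF/STAT3 signalling and the start of differentiation. No row was matched to linc1557 and its level was not analysed here, so the knockdown label stands without a check.

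All 10 genes had more reads in the knockdown library. Together they held 7717 counts there against 806 with the control hairpin, a 9.01-fold higher level (8.38 to 9.70). A single row, Gm10800, took most of these reads in both libraries. Brackets after a ratio hold its 95% Clopper-Pearson interval, which covers counting error only, not differences between cultures or clones.

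Tandem repeats of this kind, the major (gamma) satellite, make up the pericentromeric heterochromatin that flanks mouse centromeres. That chromatin is known for histone H3 lysine 9 methylation by Suv39h1 and Suv39h2, for binding of the HP1 proteins encoded by Cbx1, Cbx3 and Cbx5, and for DNA methylation. Most satellite arrays are missing from the assembled genome, and the few copies that were assembled can collect reads from the many that were not. No repeat annotation was used here; the satellite is named from background knowledge of its sequence.

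To show the repeat, the stretch of 234 bases of the Gm10800 transcript that lies closest to the other members is printed first, in the sense of the transcript. It covers chr2:98666747-98666980 (GRCm38, minus strand, within 1 exon), and its capitals mark the 12-base string that recurs most often in the set. Below it stand the best matching stretches of the next 3 rows by read count and of the antisense noncoding gene Gm26870, with capitals at each base that differs from Gm10800 or is inserted. The first of them, Gm21738, is spliced from 2 exon pieces within chr14:19417227-19418860 (minus strand). Gm10722 lies at chr9:3001196-3001429 (plus strand), Gm10801 is spliced from 3 pieces within chr2:98662375-98663883 (plus strand), and Gm26870, from 2 pieces within chr9:3000552-3004760 (minus strand), is given as its reverse complement. All are from GENCODE M21 transcripts.
Gm10800: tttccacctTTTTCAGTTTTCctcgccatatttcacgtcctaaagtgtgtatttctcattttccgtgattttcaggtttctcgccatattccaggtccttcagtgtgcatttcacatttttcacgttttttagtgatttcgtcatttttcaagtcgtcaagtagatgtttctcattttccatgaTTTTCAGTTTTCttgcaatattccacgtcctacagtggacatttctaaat
Gm21738: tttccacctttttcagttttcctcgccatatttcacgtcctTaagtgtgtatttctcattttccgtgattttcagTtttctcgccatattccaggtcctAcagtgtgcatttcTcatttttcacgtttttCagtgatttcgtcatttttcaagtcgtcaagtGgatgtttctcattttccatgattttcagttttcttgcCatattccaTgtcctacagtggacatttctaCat
Gm10722: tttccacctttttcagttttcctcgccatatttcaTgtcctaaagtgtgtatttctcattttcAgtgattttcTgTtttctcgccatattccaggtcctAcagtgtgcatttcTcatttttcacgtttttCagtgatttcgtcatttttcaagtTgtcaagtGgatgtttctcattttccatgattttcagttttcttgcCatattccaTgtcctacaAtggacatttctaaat
Gm10801: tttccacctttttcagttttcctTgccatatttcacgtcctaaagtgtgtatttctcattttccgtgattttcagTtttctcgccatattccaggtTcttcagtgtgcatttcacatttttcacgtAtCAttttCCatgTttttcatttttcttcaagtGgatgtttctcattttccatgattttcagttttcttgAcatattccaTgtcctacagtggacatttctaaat
Gm26870: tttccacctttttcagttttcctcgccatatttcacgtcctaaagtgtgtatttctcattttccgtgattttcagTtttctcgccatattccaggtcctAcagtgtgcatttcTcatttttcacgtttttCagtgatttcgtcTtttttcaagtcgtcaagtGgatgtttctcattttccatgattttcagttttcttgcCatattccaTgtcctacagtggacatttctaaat

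Gm21738 differed from the Gm10800 stretch by 9 substitutions and Gm10722 by 12, neither with an inserted or deleted base. Gm10801 had 6 substitutions, 6 inserted and 9 deleted bases, an identity of 91.3%. The reverse complement of Gm26870 had 8 substitutions, an identity of 96.6%. The same unit is thus annotated on one strand in the predicted genes and on the other in Gm26870.

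The repeat showed in each transcript compared with itself. In 8 of 10 members the best match over shifts of 20 to 300 bases fell at 234 bases, with shares of equal bases from 61.7% in Gm10715 to 67.6% in Gm10721. Over all shifts the median share was 30.7% to 31.8%, depending on the member. The exceptions were Gm10801, whose best shift was 231 bases (52.8%), and Gm10800, at 225 bases (56.3%). The string TTTTCAGTTTTC, searched on both strands, occurred 64 times in the longest transcripts of the 10 genes, always in the sense direction, with 5 to 8 copies in each. Of 19196 other reference transcripts between 504 and 684 bases long, 16 held it (0.0834%). Only 5 held 3 or more copies, and all 5 belonged to Gm11168 or Gm17535, relatives on chromosome 9 described further on. Transcripts outside this length range were not counted. The longest transcript of Gm26870, with 1170 bases, is one of these and held 13 copies, all on the opposite strand.

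**Figure D1:**
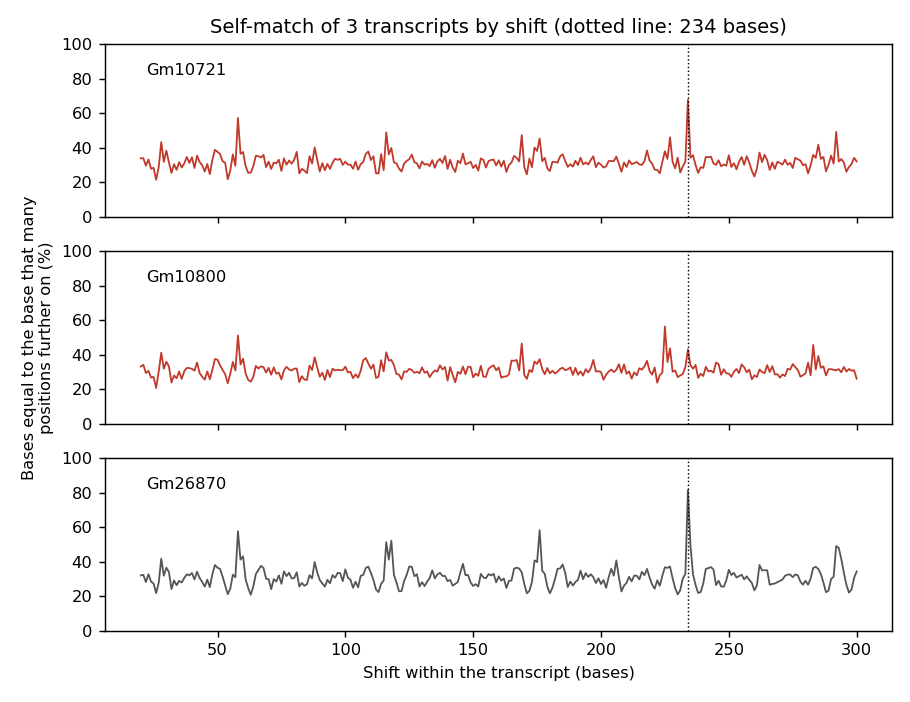
Share of bases (y axis, %) that equal the base a given number of positions further on in the same transcript (x axis, shift in bases) for Gm10721, Gm10800 and the antisense gene Gm26870. Gm10721 and Gm26870 peak at the dotted line of 234 bases (67.6% and 81.5%), while Gm10800 peaks at 225 bases (56.3%).

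The copies were close in sequence, and Gm10801 was shorter than the rest. Among the 36 pairs without Gm10801, the longest transcripts were 87.2% to 97.4% identical over their whole length, with a median of 93.4%. In the 9 pairs with Gm10801 that identity was 68.3% to 72.4%, but its transcript has 504 bases and the others have at least 651, and the missing length counts as difference. Counted over the bases of the shorter transcript, 93.3% to 94.4% matched in the pairs with Gm10801 and 91.4% to 98.8% in the other pairs. That count ignores bases present only in the longer transcript. Exact matches give another view, because a read can be placed at a single row only where that row's sequence occurs nowhere else. Of the distinct 31-base words of Gm10720, 94.4% also occurred in another member, as did 89.3% of those of Gm10721. The lowest shares were 36.2% in Gm10801, 42.0% in Gm10800 and 43.6% in Gm21738, and the other 5 members lay between 49.9% in Gm10717 and 76.4% in Gm10718. These shares count the other members only, and the genome outside annotated transcripts was not searched. The remaining words therefore need not be unique to a row.

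**Figure D2:**
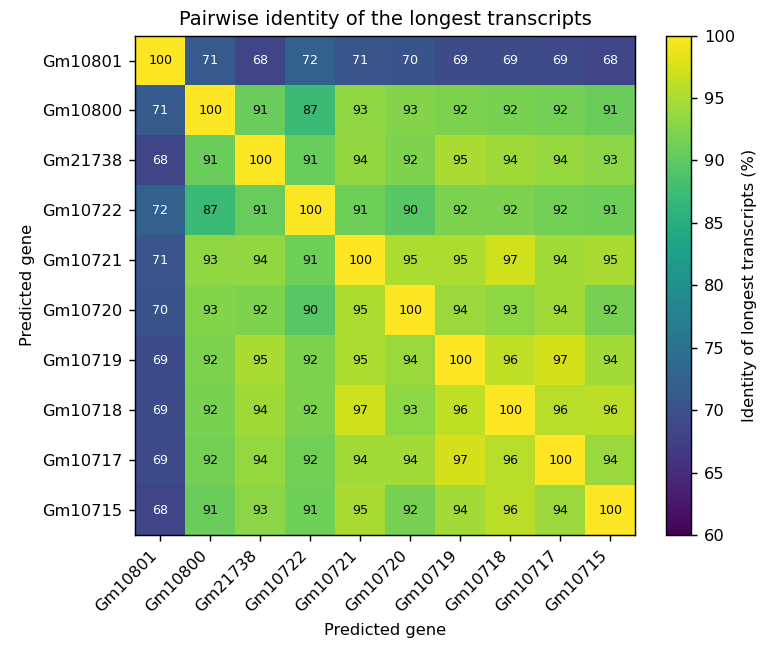
Identity (%) of the longest transcripts of each pair of the 10 predicted genes after end-to-end alignment, both axes listing the genes. Pairs with Gm10801 lie at 68.3% to 72.4%, where the bases its shorter transcript lacks count as difference along with any other change. All other pairs lie between 87.2% and 97.4%.

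The members shared more than the repeat. All 10 are annotated as protein-coding at level 3, the class of automatic annotation. None of their 21 transcripts ends in a stop codon, although 15 begin with ATG and all 21 have a length divisible by 3. These are the ends of whole transcripts, and the share of such transcripts in the whole reference was not computed. The longest transcripts of the members were 34.3% to 36.0% G and C, where the median of all 141767 reference transcripts was 49.2%, and 45.8% to 47.5% T. They lie at 3 places in the genome. Gm10801 (98662237 to 98664083, plus strand) and Gm10800 (98666547 to 98667301, minus strand) are neighbours on chromosome 2, and Gm21738 (19415857 to 19418930, minus strand) is on chromosome 14. The other 7 follow each other on the plus strand at the start of the assembled chromosome 9, from Gm10722 (3000922 to 3002330) to Gm10715 (3036877 to 3038316).

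On chromosome 2, Gm10800 (ENSMUSG00000075014) had 5965 counts with the knockdown and 608 with the control hairpin. On the CPM scale, the count divided by library size after TMM scaling, which sets the bulk of genes equal, that was 233 against 25.2 CPM, a 9.23-fold higher level (8.49 to 10.1). Per length, its level was 353 against 38.2 CPM per kilobase. It then ranked 126th of the 15850 genes with at least 1 CPM in either library in the knockdown library, and 1280th in the control library. Its neighbour Gm10801 (ENSMUSG00000075015) had 175 against 30 counts and was 5.49-fold higher (3.71 to 8.38), the lowest ratio of the set. The intervals of Gm10801 and Gm10800 did not overlap, but that of Gm10801 overlapped those of all other members.

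Gm21738 (ENSMUSG00000095280), the chromosome 14 copy, had 760 knockdown and 71 control counts. It was 10.1-fold higher (7.89 to 13.0), the highest ratio of the set, though its interval overlapped those of all other members. At 43.6 against 4.32 CPM per kilobase it came after Gm10800 in level per length in both libraries.

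Of the chromosome 9 genes, Gm10722 (ENSMUSG00000091028) had the most reads, 371 against 41 counts, and was 8.52-fold higher (6.16 to 12.1). Gm10717, which has 9 annotated transcripts, had 156 against 20 counts and was 7.34-fold higher (4.59 to 12.4). For Gm10718, 116 against 11 counts gave a 9.93-fold higher level (5.35 to 20.4). These 3 intervals overlap, so the counts do not order the genes by ratio. Gm10719, with 3 transcripts, had 102 against 15 counts and was 6.40-fold higher (3.70 to 11.9). Gm10721 had 41 against 5 counts and had a log2 ratio of 2.95 (1.61 to 4.65). Both libraries were low for the remaining pair. Gm10720 had 19 against 3 counts, a ratio of 5.96 (1.75 to 31.5), and Gm10715 had 12 against 2 counts, a ratio of 5.65 (1.26 to 52.0). The 7 chromosome 9 rows together had 817 against 97 counts and were 7.93-fold higher (6.42 to 9.89).

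**Figure D3:**
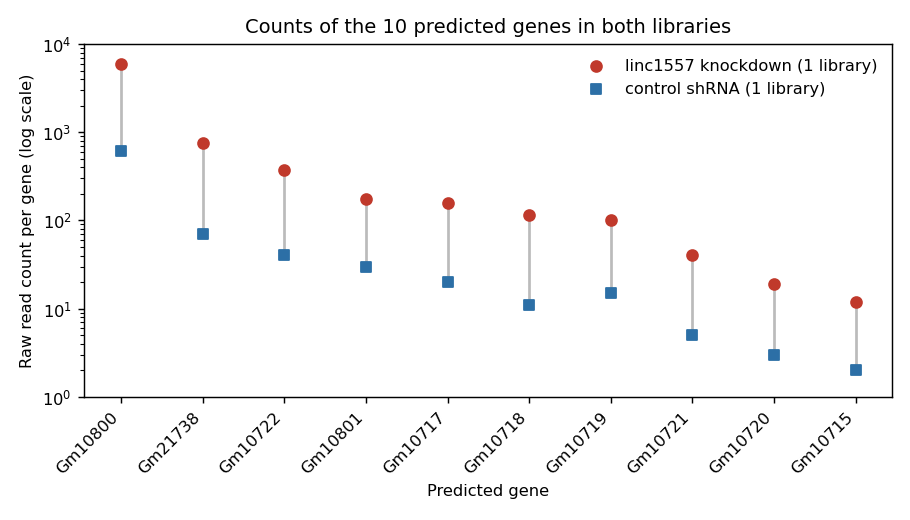
Raw read counts (y axis, log scale) of each predicted gene (x axis, ordered by knockdown count) in the knockdown library (red circles) and the control library (blue squares), 1 library each, joined by a grey line. Every gene lies higher in the knockdown library, from 5965 against 608 counts for Gm10800 to 12 against 2 for Gm10715.

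A gene was called higher when its level differed by at least 2-fold, its interval excluded 1 and it reached 1 CPM in either library. By this rule 8 of the 10 were called higher, where 4.68% of all 15850 genes were; as the set was proposed from this same contrast, nothing is read from that count. The 2 others, Gm10720 and Gm10715, stayed under 1 CPM in both libraries. Of the 8, 4 reached 1 CPM in both libraries (Gm10800, Gm21738, Gm10722 and Gm10801) and 4 in the knockdown library only, so the latter could not have entered without being higher there. With no filter all 10 were called higher, beside 4.73% of all genes, and with a filter at 5 CPM the 5 that entered were called, beside 2.86%. The median log2 ratio over all 10 rows was 2.91, and over all 15850 genes 0.02. The pooled log2 ratio of 3.17 lay inside the interval of 9 of 10 members, all but Gm10801. The members themselves form the pool, Gm10800 holds 77.3% of its knockdown reads, and several intervals are wide. Nothing about agreement between rows is therefore read from that count.

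**Figure D4:**
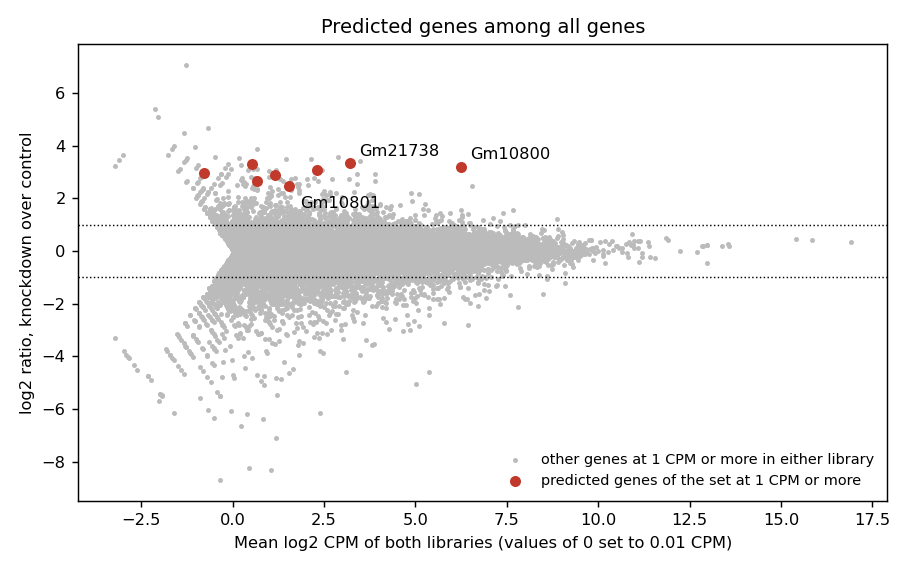
Log2 ratio of knockdown over control (y axis) against the mean log2 CPM of both libraries (x axis) for the 15850 genes with at least 1 CPM in either library, with a count of 0 set to 3 in the ratio and to 0.01 CPM on the x axis. The 8 predicted genes that entered (red) lie between log2 ratios of 2.46 and 3.33, above the dotted line of a 2-fold difference, and Gm10800 is the most abundant of them.

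Because reads of one copy can be placed on another, the sum is less dependent on their placement than a single row. The pool took 0.0289% (0.0283 to 0.0296) of all counts in the knockdown library and 0.00348% (0.00325 to 0.00373) in the control library (95% Wilson intervals). The shares of single rows in the pool had overlapping intervals in both libraries for the 2 largest rows. Gm10800 held 77.3% (76.3 to 78.2) of the pooled reads in the knockdown and 75.4% (72.3 to 78.3) in the control library, and Gm21738 held 9.85% (9.20 to 10.5) and 8.81% (7.04 to 10.97). Without Gm10800, the other 9 rows had 1752 against 198 counts and were 8.33-fold higher (7.19 to 9.70). Whether a read matching several copies was dropped, placed at random or counted more than once is not given in the sources used. The rows were not all repeats of one count, since they ranged from 12 to 5965 in the knockdown library. Some reads may still have been counted in several rows.

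A search of the transcripts of all 55450 reference genes for 31-base words of the members, on both strands, found 3 further genes, and all 3 lie among the members on chromosome 9. The predicted gene Gm11168 (3003346 to 3006948, plus strand) shares 64.4% of its words with the members in the same sense. It had 66 against 7 counts and was 8.87-fold higher (4.07 to 22.9). Gm17535 (3034599 to 3035805, plus strand) shares 92.1%, and its 9 against 2 counts gave a ratio of 4.24 (0.877 to 40.3), which did not exclude equal levels. Adding both to the pool left its log2 ratio at 3.17 (3.07 to 3.28).

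The long noncoding gene Gm26870 (ENSMUSG00000097312) runs across nearly the whole chromosome 9 group on the minus strand, from 3000282 to 3038313. It shares 70.8% of its words with the members, all on the opposite strand. Its counts went the other way, 79 with the knockdown against 127 with the control hairpin, for a log2 ratio of -0.77 (-1.20 to -0.36). That is less than a 2-fold difference and was not called, yet its interval overlapped none of the 10 members' intervals. Exons of Gm26870 lie over 41.1% of the exon bases of Gm10721, 32.0% of Gm10715, 22.8% of Gm10718 and 12.1% of Gm10719, and over none of the other 6 members. The sources used do not give the strand setting or how reads under more than 1 gene were treated, so reads of the opposite strands cannot be told apart in those stretches. The part of strand and placement in this difference was not tested.

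**Figure D5:**
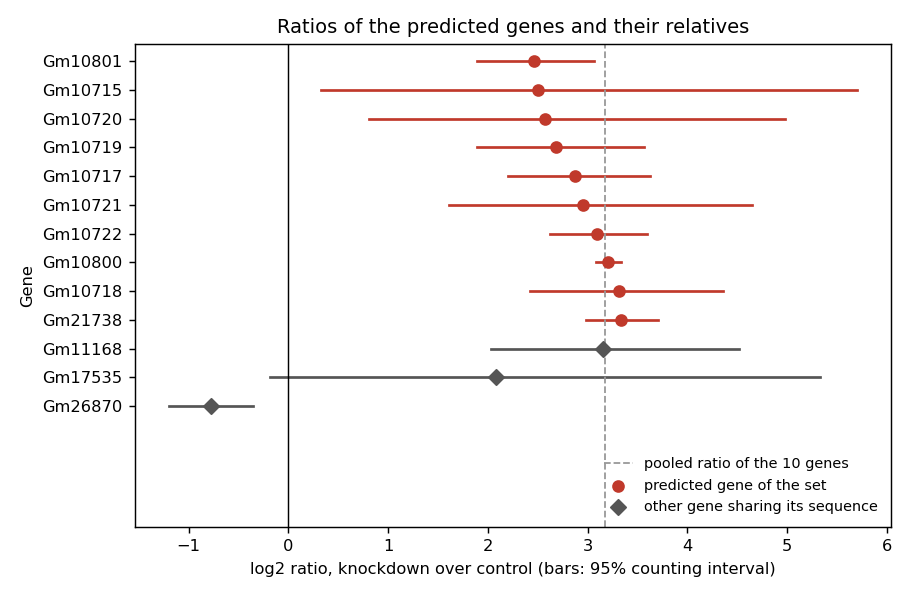
Log2 ratio of knockdown over control (x axis) with its 95% counting interval (bars) for the 10 predicted genes (red circles) and the 3 other genes that share their sequence (grey diamonds), with the pooled log2 ratio of 3.17 as a dashed line. Every member lies between 2.46 and 3.33, whereas Gm26870 lies at -0.77.

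Other genes within 100 kb had few reads or none. The pseudogenes Gm13806 near the chromosome 2 pair and Gm9637 and Gm7352 near Gm21738, and the microRNA gene Mir101c on chromosome 9, had 0 counts in both libraries. The noncoding gene 4930433N12Rik had 15 against 6 counts, a ratio of 2.35 (0.863 to 7.40). No gene of unrelated sequence next to a member therefore reached 1 CPM.

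Among the 20190 other rows named as predicted models, 1948 reached 1 CPM. Of these 124 (6.37%) were higher and 98 (5.03%) lower, with a median log2 ratio of 0.08. Ratios of 8-fold or more were found for 3 of them, named after their values were seen. These were the relative Gm11168, the noncoding gene Gm16063 (31 against 2 counts, log2 ratio 3.87) and the pseudogene Gm2830 (147 against 17 counts, 3.02). In all, 27 of the 15850 genes had a higher ratio than Gm10800 and 88 a higher one than Gm10801. Both counts include members of the set: Gm21738 and Gm10718 are among the 27, and 7 members are among the 88.

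Genes known to build, read or demethylate pericentromeric heterochromatin mostly differed by less than 2-fold in transcript level. Of 22 such genes, all of which reached 1 CPM, 21 were not called, 1 was lower and none was higher, and their median log2 ratio was 0.07. Among all 15850 genes, 13605 were likewise not called, 9.48% were lower and 4.68% higher. Nothing particular to the list is therefore read from its counts. The one that was lower was Dnmt3b, a de novo DNA methyltransferase, with 2732 against 11239 counts and a log2 ratio of -2.13 (-2.19 to -2.07). The other de novo enzyme, Dnmt3a, stood at -0.76, and the maintenance methyltransferase Dnmt1 at 0.55, the highest of the list. Suv39h1 and Suv39h2, which methylate histone H3 at lysine 9 in this chromatin, had log2 ratios of -0.13 and 0.30. Trim28, a corepressor that recruits Setdb1, was the most abundant by counts, with 18329 against 18475 and a log2 ratio of -0.10. Next by counts came Cbx5 (-0.05), which encodes an HP1 protein, the chromatin remodeller gene Hells (0.44) and Dnmt1, followed by Atrx (0.08), a remodeller of repeat chromatin. Transcript counts carry no measure of histone or DNA methylation at the repeats.

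The knockdown library totalled 26693282 and the control library 23146210 counts. The stem cell markers Pou5f1 (log2 ratio 0.13), Sox2 (0.02) and Nanog (0.27) were abundant in both, and none of 6 such markers was called. Feeder fibroblast markers were lower in the knockdown library for 9 of 14 genes and higher for none, with a median log2 ratio of -1.48 and none at 0 counts. Among all genes 9.48% were lower and 4.68% higher, so none higher in lists this short is unremarkable. Their summed level was 1446 against 2247 CPM, most of it in the knockdown library from Fn1 (1058 against 1199 CPM), and without Fn1, left out after its value was seen, 388 against 1049 CPM. The part of feeder cells or of clone differences in the ratios of the predicted genes was not tested. In bulk RNA, more cells with these transcripts and more transcript per cell cannot be told apart.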

How the data were processed

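RNA sequencing libraries of 2 samples, 1 knockdown and 1 control, were compared. The table the authors deposited holds unnormalised counts and a length for each gene. HISAT2 and featureCounts, besides Trim Galore and DESeq, are named in the submitters' processing notes, as are the builds mm10 and GRCm38. For versions, annotation release, strand setting and the handling of multi-mapping and overlapping reads, the answer is not given in the sources used. The deposited length equalled the GENCODE M21 exon union for all 10 members.

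Scaling used the TMM factors of edgeR 4.0.16 under R 4.3.3 (knockdown 0.960, control 1.04), and ratios were computed with Python 3.11.15, numpy 2.4.6, pandas 2.3.3 and scipy 1.17.1, with no pseudocount. In a ratio, 0 counts were replaced by 3. Figures used matplotlib 3.10.9. Intervals cover counting error only and treat reads as independent. Reads without molecular identifiers are not independent molecules, and a read counted in several rows would enter the pool more than once. The intervals may therefore be too narrow even for counting error. Sequences were GENCODE M21 transcripts, the longest per gene for alignments and all of a gene for shared 31-base words. Promoter sequences were not analysed.

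The members and lists were chosen with earlier results of these data known. Genes named are all members, all genes within 100 kb, the sequence relatives, called and the 4 most abundant heterochromatin genes, and 3 stem cell markers; Dnmt3a, Suv39h1, Suv39h2, Atrx, Gm16063 and Gm2830 were added after their values were seen. Alternatives were total counts, DESeq2 1.42.0 size factors, TMM on nuclear protein-coding genes, other filters and thresholds, a prior count of 2, thinning and other pooling.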

Additional observations from a re-analysis of the deposited data

How the results depend on the processing

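The pooled log2 ratio of 3.17 ranged from 3.05 to 3.21 over the scalings, the prior count and thinning; it was 3.05 with total counts, which shifted the median of all genes by -0.12. It was 2.91 as the median of the 10 rows and, in a pool chosen after seeing the data, 3.06 without Gm10800. All 50 member values under the 5 alternatives that give one stayed inside their counting intervals, between 1.75 and 3.37, and none changed sign. Each change of scaling moves all members by the same amount, and many intervals are wide, so the 50 values are not separate checks. A filter at 5 CPM left 5 members, all 5 called higher; it gave 330 higher and 728 lower genes overall. A 1.5-fold threshold gave 1817 higher and 2598 lower genes, against 742 and 1503, and 2 in place of 1 called heterochromatin genes. Depth limits Gm10720 and Gm10715, with 3 control counts or fewer. No paired analysis was possible because each group has 1 library, and for that reason no library could be left out.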
